A study of Macaca mulatta with 102 samples.

Results

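Mammary tissue taken by biopsy was compared with the cells shed into milk of the same 6 rhesus macaque (Macaca mulatta) mothers. The samples were chosen by their labels: 6 samples carried the tissue type Bx and 12 the tissue type Cells, 18 of the 34 samples of the series. Each animal gave 1 vacuum-assisted core biopsy immediately after milking, M3, M4 and M6 at day 30 after birth and M1, M2 and M5 at day 90, whereas milk cells came from every animal at both days. The mothers were prime-aged, multiparous colony animals nursing male infants, sedated and given oxytocin for milking, and the milk cells were the washed pellet left after centrifugation of whole milk. Poly(A) RNA was sequenced in 3 technical runs per sample, and the values are FPKM, a level per length of transcript and per amount of mapped reads, so that levels of different genes could be set side by side.

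The lactating gland holds secretory luminal epithelium, contractile myoepithelium and a stroma of adipocytes, fibroblasts, vessels and resident immune cells, and a core biopsy samples all of them. Milk carries shed epithelial cells and leukocytes. Secretory epithelium makes caseins and whey proteins, joins UDP-galactose to glucose in the Golgi to form lactose, and buds off lipid droplets as milk fat globules. In bulk samples, fewer cells of a type and less RNA per cell cannot be told apart.

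The transcripts bore Ensembl identifiers without names. Of the genes listed for naming, 25 were tied to 29 transcripts; of 9 lists of cell type markers, 7 had no tied gene, and only CD24 (luminal epithelium) and LYZ (macrophage and monocyte) could be followed. The labelled cell types therefore could not be checked against their defining stromal, myoepithelial or lymphocyte markers, and no pathway outside milk synthesis and abundant cellular transcripts is described by name. All coordinates are on rheMac2.

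Depth was not measured but inferred from the ratios of low FPKM values between samples, at transcripts that overlap no other. Relative to the median sample, inferred depth was 0.745 to 1.38 in biopsies and 0.854 to 1.19 in milk cells, so the ranges overlapped. In biopsies 12018 to 14418 transcripts reached 1 FPKM, and in milk cells 11163 to 15075. No counts accompany the FPKM, so the counting error of single values is unknown, and the error given is that between animals.

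The biopsies fell apart into M1, M2 and M3 on the one side and M4, M5 and M6 on the other. Spearman correlations over the transcripts tested were 0.908 to 0.930 within the first 3, 0.913 to 0.922 within the other 3, and 0.804 to 0.846 between them. Neither the day of biopsy nor the number in the sample titles, which was 2 for M1 and M2, 3 for M3, M4 and M5 and 4 for M6, separated them in this way. The biopsies of M1, M2 and M3 were also less like milk cells, with a median correlation of 0.672 against 0.751 for the others. Among milk cells, the day 30 sample of M2 stood apart, with a median correlation of 0.796 with the other 11 samples, which had a median of 0.891 among themselves. Where leaving out M1, M2 and M3 changed a call or a sign among the named transcripts, the value without them is given.

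Most milk protein transcripts were present at high level in both sample types, and only 2 of 9 passed the test between them, LALBA upward and LTF downward in milk cells. Of all 14172 transcripts tested, 22.8% were higher and 21.6% lower in milk cells at an adjusted p under 0.05 (limma, animal as block, Benjamini-Hochberg). The median log2 difference, milk cells minus biopsies, was 0.08 over these 9 transcripts and 0.04 over all transcripts tested.

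LALBA encodes alpha-lactalbumin, the whey protein that turns beta-1,4-galactosyltransferase into lactose synthase. Its transcript (ENSMMUT00000000415, chr11:45692914-45695265) ranged from 27654 FPKM to 75671 FPKM in biopsies with a median of 43972 FPKM, and from 59683 FPKM to 193091 FPKM in milk cells with a median of 99270 FPKM. The ranges overlapped, but 9 of 12 milk cell samples lay above the highest biopsy. The scaled log2 difference was 0.91 ± 0.28 (SE, 6 animals; adjusted p = 0.0331), and it was positive in 6 of 6 animals, from 0.21 in M2 to 2.23 in M3. It was 0.59 (adjusted p = 0.0327) without M1, M2 and M3. With day 90 milk cells alone it was 0.77 and did not pass the test (adjusted p = 0.0713), nor did it without M1 (0.85, adjusted p = 0.0937), without M4 (0.96, adjusted p = 0.0561) or without M6 (0.95, adjusted p = 0.0630). It also did not pass with a pseudocount of 0.1 (adjusted p = 0.111) or with no filter on low values (adjusted p = 0.949).

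LTF encodes lactoferrin, an iron-binding antimicrobial protein of milk and of neutrophil granules. Its transcript (ENSMMUT00000020008, chr2:90062066-90090651) had a lowest, median and highest level of 5719, 7409 and 12357 FPKM in biopsies and of 1211, 3585 and 13294 FPKM in milk cells. In milk cells 9 of 12 samples were below the lowest biopsy, whereas the day 90 sample of M5 was above the highest. LTF was lower in milk cells in 6 of 6 animals, with a log2 difference of -1.38 ± 0.21 (SE; adjusted p = 0.00192). The difference followed the day of the milk: mean levels in milk cells were 2480 ± 988 FPKM (SD, n = 6) at day 30 and 6333 ± 3765 FPKM (SD, n = 6) at day 90, and against day 90 milk cells alone the log2 difference was -0.71 (adjusted p = 0.0506). Against milk cells of the biopsy's own day it was -1.08 (adjusted p = 0.0189), and without M1, M2 and M3 it was -1.23 (adjusted p = 0.00762). With no filter on low values LTF did not pass (adjusted p = 0.0997).

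LYZ encodes lysozyme, a bacteriolytic enzyme of milk and of macrophages. Its transcript (ENSMMUT00000012553, chr11:66342374-66347986) had a lowest, median and highest level of 11244, 16205 and 35396 FPKM in biopsies and of 21251, 32645 and 77081 FPKM in milk cells. The log2 difference of 0.82 ± 0.33 (SE) was positive in 5 of 6 animals and did not pass the test (adjusted p = 0.0778), although it did against milk cells of the biopsy's own day (0.96, adjusted p = 0.0477) and with FPKM as deposited (1.07, adjusted p = 0.0217). Without M1, M2 and M3 it was 0.53 (adjusted p = 0.106). The within-sample ratio of LYZ to LTF was 1.18 to 4.35 in biopsies and 1.96 to 29.7 in milk cells. It was higher in milk cells in 6 of 6 animals.

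The caseins form the micelles of milk, CSN2 (beta-casein) as the main calcium-binding casein and CSN3 (kappa-casein) as the stabilizer of the micelle surface. The dominant CSN2 transcript (ENSMMUT00000042085, chr5:59676470-59680187) had a lowest, median and highest level of 336334, 480684 and 633745 FPKM in biopsies and of 272092, 393004 and 494120 FPKM in milk cells. CSN3 (ENSMMUT00000008430, chr5:59423490-59435314) had 46281, 83504 and 124911 FPKM in biopsies and 37053, 58144 and 72895 FPKM in milk cells. The groups overlapped for both genes, and neither passed the test (log2 difference -0.60 ± 0.33, adjusted p = 0.171, and -0.71 ± 0.40, adjusted p = 0.179; SE).

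The animals disagreed on the caseins along the division among the biopsies. The CSN2 difference was -1.18, -1.77 and -0.86 in M1, M2 and M3, but 0.29, -0.59 and 0.51 in M4, M5 and M6. The CSN3 differences were -1.40, -2.45 and -0.75 in the first 3 animals and 0.34, -0.58 and 0.59 in the others. Without M1, M2 and M3 the log2 differences were 0.07 for CSN2 (adjusted p = 0.852) and 0.12 for CSN3 (adjusted p = 0.749), with the sign turned.

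A second, longer CSN2 transcript (ENSMMUT00000006853, chr5:59676454-59681817) overlaps the first, and Cufflinks divides the reads of a locus between them. It had 14768 to 68840 FPKM in biopsies and 39553 to 76799 FPKM in milk cells, with a log2 difference of 0.54 ± 0.27 (SE, adjusted p = 0.133). The level of the dominant transcript was 27.4, 36.7 and 35.3 times that of the second in the biopsies of M1, M2 and M3, and 6.07, 6.08 and 5.56 times in those of M4, M5 and M6. In milk cells the ratio was 4.996 to 7.29 in all 12 samples. Milk cells and the last 3 biopsies thus had a similar balance of the CSN2 transcripts, whereas the first 3 biopsies did not. The summed CSN2 locus had a log2 difference of -0.52 ± 0.30 (SE, adjusted p = 0.175).

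**Figure D1:**
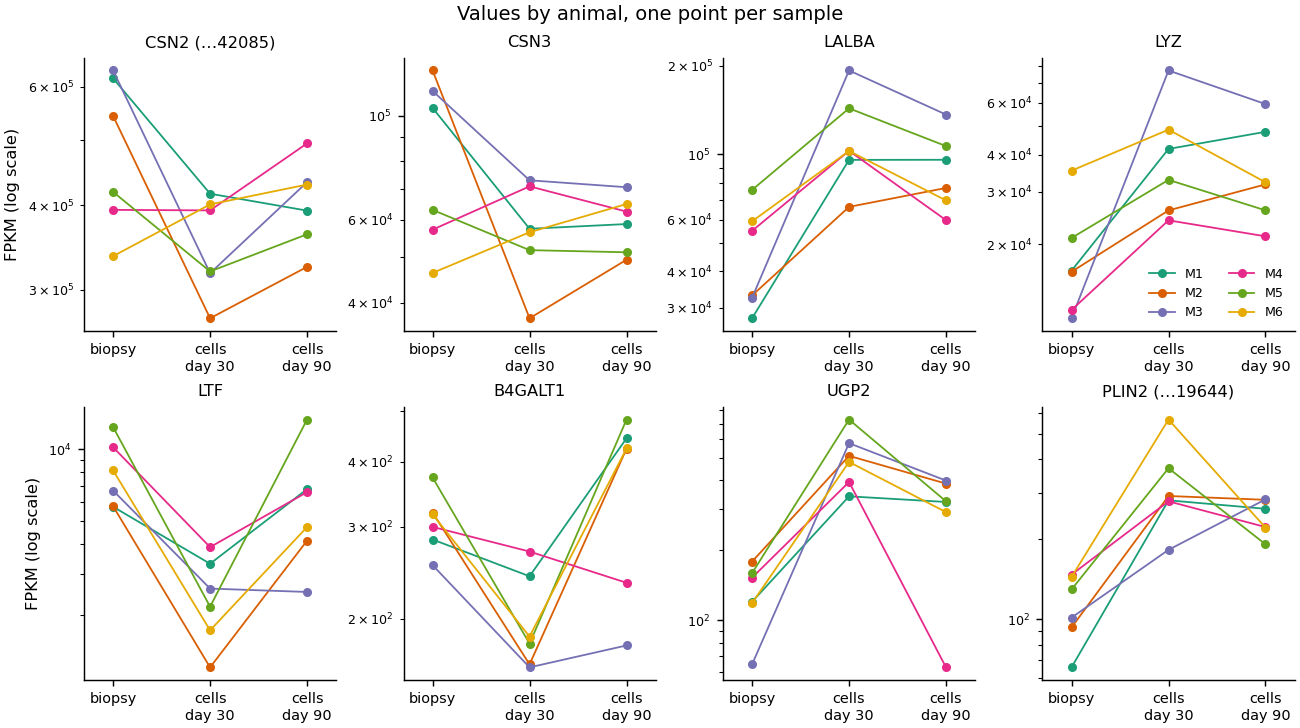
FPKM (log axis) of 8 transcripts in the biopsy and in the day 30 and day 90 milk cells of each animal, 1 point per sample and 1 line per animal; the digits after CSN2 and PLIN2 are the end of the transcript identifier. Biopsies of M1, M2 and M3 were highest for the caseins and lowest for LALBA, and the PLIN2 transcript shown was higher in all 12 milk cell samples than in any biopsy.

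The other milk protein transcripts did not pass the test. LGB2, a beta-lactoglobulin (ENSMMUT00000047130, chr15:2731645-2735903), had a median of 56888 FPKM in biopsies and 73679 FPKM in milk cells, and a log2 difference of 0.08 ± 0.23 (SE, adjusted p = 0.783). GLYCAM1, a mucin-like protein of milk (ENSMMUT00000000164, chr11:51725784-51727934), had medians of 2194 and 2443 FPKM and a log2 difference of 0.02 ± 0.20 (SE, adjusted p = 0.930). SPP1 (osteopontin; ENSMMUT00000042016, chr5:80941204-80948955) had medians of 1893 and 2639 FPKM and a log2 difference of 0.33 ± 0.18 (SE, adjusted p = 0.182). SPP1 did pass with FPKM as deposited (0.58, adjusted p = 0.0126), without M2 (0.49, adjusted p = 0.0334) and without M1, M2 and M3 (0.55, adjusted p = 0.0275). The 95% confidence intervals reached from -0.45 to 0.62 for LGB2, from -0.44 to 0.49 for GLYCAM1 and from -0.10 to 0.75 for SPP1, all within 3-fold.

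Shares within a sample need no scaling factor. Together the 8 milk protein genes took 68.9% to 79.9% of the summed FPKM of a biopsy and 51.4% to 76.3% of that of milk cells, and the lowest value was the day 30 sample of M2. Within these genes LALBA took 3.32% to 10.1% in biopsies and 7.69% to 23.7% in milk cells. LTF took 0.687% to 1.65% in biopsies and 0.225% to 1.79% in milk cells. Averaged over an animal's days, LALBA was higher and LTF lower in milk cells in 6 of 6 animals. In day 90 milk cells alone, LTF was above the biopsy in M1 (0.918% against 0.687%) and M5 (1.79% against 1.65%). LALBA was then below the biopsy in M4 (7.69% against 8.30%) and M6 (9.29% against 9.44%). The other animals kept the direction. The share of CSN2 was lower in milk cells in 5 of 6 animals, with a mean of 70.0% ± 5.35 (SD, n = 6) in biopsies and 60.8% ± 6.63 (SD, n = 12) in milk cells. The ratio of the caseins to LALBA and LGB2 was 11.8, 8.27 and 9.56 in the biopsies of M1, M2 and M3, 4.33, 3.38 and 3.29 in those of M4, M5 and M6, and 1.55 to 5.17 in milk cells. No test was made of these shares.

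**Figure D2:**
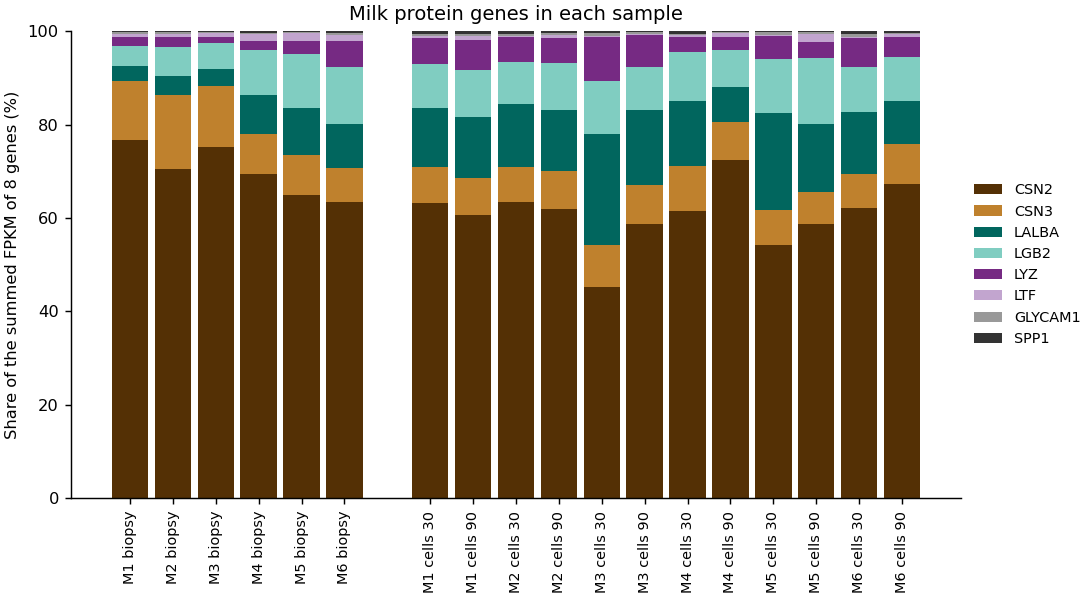
Share of each of 8 milk protein genes (in %) in the summed FPKM of these genes, with 1 bar per sample, biopsies on the left and milk cells on the right (day 30 or 90 in the label). LALBA took 3.32% to 10.1% in biopsies and 7.69% to 23.7% in milk cells, and CSN2 took the largest share in every sample.

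Lactose is made from glucose and UDP-galactose, and of 14 genes listed for this route the transcripts of 8 were tied to identifiers. These identifiers were printed with the study's lactose synthesis figure, whose caption reports every difference shown between biopsy and milk fat as significant. The 8 were therefore not chosen apart from these biopsies, and their shares are not those of the whole route. Higher levels in milk cells passed the test for 4 of them (LALBA, UGP2, NME2 and CMPK1), lower levels for 0 (B4GALT1 had an unadjusted 95% interval below 0), and 4 did not pass, against 22.8% higher and 21.6% lower of all transcripts tested. The median log2 difference of the 8 was 0.39, against 0.04 over all transcripts tested. None differed by more than 3-fold. Against day 90 milk cells alone, the adjusted p of the 8 ran from 0.0615 to 0.837 (limma).

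UGP2 encodes UDP-glucose pyrophosphorylase, which activates glucose for galactose synthesis. Its transcript (ENSMMUT00000012251, chr13:64029084-64089013) had a lowest, median and highest level of 64.7, 136 and 179 FPKM in biopsies and of 62.8, 390 and 728 FPKM in milk cells. Of 12 milk cell samples, 11 lay above the highest biopsy, and the day 90 sample of M4 lay below the lowest. The log2 difference was 1.24 ± 0.33 (SE, adjusted p = 0.0200), positive in 6 of 6 animals from 0.17 to 2.79. It was 0.81 (adjusted p = 0.180) against day 90 milk cells, 1.12 (adjusted p = 0.0526) without M6 and 1.11 (adjusted p = 0.0632) without M1, M2 and M3, and it did not pass with no filter on low values (adjusted p = 0.0569).

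NME2 and CMPK1 encode nucleoside phosphate kinases that restore the uridine nucleotides spent in the route. NME2 (ENSMMUT00000041822, chr16:35402045-35407009) had 95.1, 159 and 209 FPKM (lowest, median and highest) in biopsies and 194, 294 and 472 FPKM in milk cells, and 10 of 12 milk cell samples lay above the highest biopsy. Its log2 difference was 0.75 ± 0.20 (SE, adjusted p = 0.0193), positive in 6 of 6 animals, but 0.50 (adjusted p = 0.135) against day 90 milk cells and 0.74 (adjusted p = 0.0557) without M1. It was 0.42 (adjusted p = 0.0320) without M1, M2 and M3. CMPK1 (ENSMMUT00000024433, chr1:50153990-50198871) had 17.5, 21.8 and 37.9 FPKM in biopsies and 23.6, 42.1 and 58.1 FPKM in milk cells, with a log2 difference of 0.46 ± 0.15 (SE, adjusted p = 0.0346; positive in 6 of 6). CMPK1 did not pass without the block (adjusted p = 0.0913), without M1, M2, M3 or M6 in turn (adjusted p = 0.0529 to 0.0961), without M1, M2 and M3 together (0.28, adjusted p = 0.171), with no filter on low values (adjusted p = 0.0528), or against day 90 milk cells (0.36, adjusted p = 0.110).

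The galactosyltransferase itself did not pass the test in either direction. B4GALT1 (ENSMMUT00000002948, chr15:44063193-44118812), the catalytic partner of alpha-lactalbumin, had a lowest, median and highest level of 254, 309 and 373 FPKM in biopsies and of 162, 238 and 482 FPKM in milk cells. Its log2 difference was -0.49 ± 0.18 (SE), negative in 5 of 6 animals and just outside the threshold (adjusted p = 0.0547). It passed against day 30 milk cells (-0.92, adjusted p = 0.0161), without the block (adjusted p = 0.0317), without the variance trend (adjusted p = 0.0466) and without M6 (adjusted p = 0.0440), and was -0.05 (adjusted p = 0.837) against day 90 milk cells. LALBA exceeded B4GALT1 97.4-fold to 203-fold in biopsies and 164-fold to 1195-fold in milk cells on the FPKM scale. Averaged over an animal's days, the ratio was higher in milk cells in 6 of 6 animals. In day 90 milk cells of M6 alone it was lower, 164 against 186 in the biopsy.

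PGM1, GALT and GALK1, which feed glucose and galactose phosphates into the route, did not pass the test. PGM1 (ENSMMUT00000028187, chr1:66370644-66436886) had medians of 15.9 FPKM in biopsies and 24.6 FPKM in milk cells and a log2 difference of 0.28 ± 0.11 (SE, adjusted p = 0.0762). GALT (ENSMMUT00000029242, chr15:42873307-42877251) and GALK1 (ENSMMUT00000030626, chr16:71071239-71078734) were low in both types, at 1.34 to 4.93 FPKM and 1.53 to 6.46 FPKM over the 18 samples. Their log2 differences were 0.07 ± 0.12 (SE, adjusted p = 0.654) and 0.32 ± 0.16 (SE, adjusted p = 0.133).

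Several of these loci hold more than 1 annotated transcript. Summed over the locus, UGP2 (log2 difference 1.21, adjusted p = 0.0149), NME2 (0.63, adjusted p = 0.0185) and CMPK1 (0.46, adjusted p = 0.0272) stayed past the test, and GALK1 joined them (0.50, adjusted p = 0.0242). The named transcript held 95.8% of the summed FPKM of the UGP2 locus in milk cells and 93.4% in biopsies. At the NME2 locus another transcript passed both the test and 3-fold, with 0.5003 to 12.7 FPKM in biopsies, 5.37 to 34.8 FPKM in milk cells and a log2 difference of 1.88 ± 0.47 (SE, adjusted p = 0.0149). It starts at chr16:35388524 and so spans more than the named transcript. A further transcript there went the other way without passing, with medians of 15.8 FPKM in biopsies and 3.45 FPKM in milk cells. Its log2 difference was -2.08 ± 1.02 (SE, adjusted p = 0.132). The 21 transcripts chained to B4GALT1 by overlap span more than that gene, and the named transcript held 75.1% of their FPKM in biopsies.

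PLIN2 encodes perilipin 2 (adipophilin), which coats cytoplasmic lipid droplets and remains in the membrane of the milk fat globule. All 4 transcripts tied to it were higher in milk cells in 6 of 6 animals and passed the test, as did 22.8% of all transcripts tested. Summed, they had a lowest, median and highest level of 1309, 1629 and 2355 FPKM in biopsies and of 2467, 3619 and 7263 FPKM in milk cells, so that the groups did not overlap. In milk fat, the fraction that holds the globules themselves, the sum was 26029, 83495 and 311416 FPKM.

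The PLIN2 transcript with the largest difference (ENSMMUT00000019644, chr15:57855543-57859818) had 65.7 to 147 FPKM in biopsies and 182 to 566 FPKM in milk cells, with a log2 difference of 1.06 ± 0.15 (SE, adjusted p = 0.00137). The second (ENSMMUT00000016990, chr15:58240050-58241364) had 175 to 392.3 FPKM and 395 to 1178 FPKM, with 1.02 ± 0.16 (adjusted p = 0.00191), and the third (ENSMMUT00000025856, chr15:57864460-57866618) had 378 to 596 FPKM and 741 to 2287 FPKM, with 0.92 ± 0.18 (adjusted p = 0.00500). All 12 milk cell samples lay above all 6 biopsies for these 3, as for 5.6% of all transcripts tested. The fourth (ENSMMUT00000019645) lies on another chromosome and spans only 376 bases (chr14:67231622-67231997), so its reads may be shared with the other loci, and it had a log2 difference of 0.75 ± 0.19 (SE, adjusted p = 0.0169). The first 3 passed the test under every alternative tried, whereas the fourth did not with no filter on low values (adjusted p = 0.0612).

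FABP3, the fatty acid binding protein that carries fatty acids in the cytoplasm of secretory cells, differed in sign between animals. Its transcript (ENSMMUT00000029511, chr1:34144226-34145760) had 9180, 17638 and 38003 FPKM (lowest, median and highest) in biopsies and 9943, 19654 and 26411 FPKM in milk cells. The log2 difference was -0.14 ± 0.37 (SE, adjusted p = 0.775), with a 95% confidence interval from -1.01 to 0.73, and it was positive in 3 of 6 animals. Without M1, M2 and M3 it was 0.68 (adjusted p = 0.0371), past the test with the sign turned.

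CD24, a surface antigen of luminal epithelium, and B2M, the light chain of MHC class I on nucleated cells, did not pass the test. CD24 (ENSMMUT00000022072, chr4:103000320-103003296) had 2051, 4583 and 6204 FPKM (lowest, median and highest) in biopsies and 3837, 6280 and 8702 FPKM in milk cells, with a log2 difference of 0.32 ± 0.18 (SE, adjusted p = 0.175). It passed with FPKM as deposited (0.57, adjusted p = 0.0357). B2M (ENSMMUT00000005322, chr7:23126191-23130703) had 2320, 3046 and 3397 FPKM in biopsies and 2188, 2723 and 10805 FPKM in milk cells, with a log2 difference of -0.11 ± 0.18 (SE, adjusted p = 0.628). The highest B2M value was the day 30 sample of M2, the one that stood apart. That sample also had the lowest CSN2, CSN3 and LTF levels and the highest FTL, at 11876 FPKM. The part of its cell makeup in these values was not tested, and leaving it out changed no call among the named transcripts.

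The remaining 6 named transcripts belong to abundant cellular genes, with a median log2 difference of 0.06. Against 22.8% higher and 21.6% lower of all transcripts tested, 0 of the 6 passed the test (limma) or had an unadjusted p under 0.05. They were the ferritin chains FTL and FTH1, which store iron, the translation-associated TPT1, the metallothionein MT1E, SERF2 and the ATP synthase subunit ATP5J2. Their log2 differences were 0.24 ± 0.19 for FTL, 0.20 ± 0.16 for FTH1, 0.09 ± 0.23 for MT1E, 0.04 ± 0.25 for SERF2, -0.28 ± 0.31 for ATP5J2 and -0.42 ± 0.30 for TPT1 (SE). The unadjusted 95% intervals of all 6 lay within 3-fold, the bound farthest from 0 being -1.11 for TPT1. Most lie at compact loci, such as 198 bases for FTL, 187 bases for MT1E and 268 bases for ATP5J2, where reads of near-identical copies may be counted. The group was not steady when M1, M2 and M3 were left out: FTH1, SERF2 and ATP5J2 then passed the test with 0.48, 0.62 and 0.47 (adjusted p = 0.0346, 0.0364 and 0.0363).

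**Figure D3:**
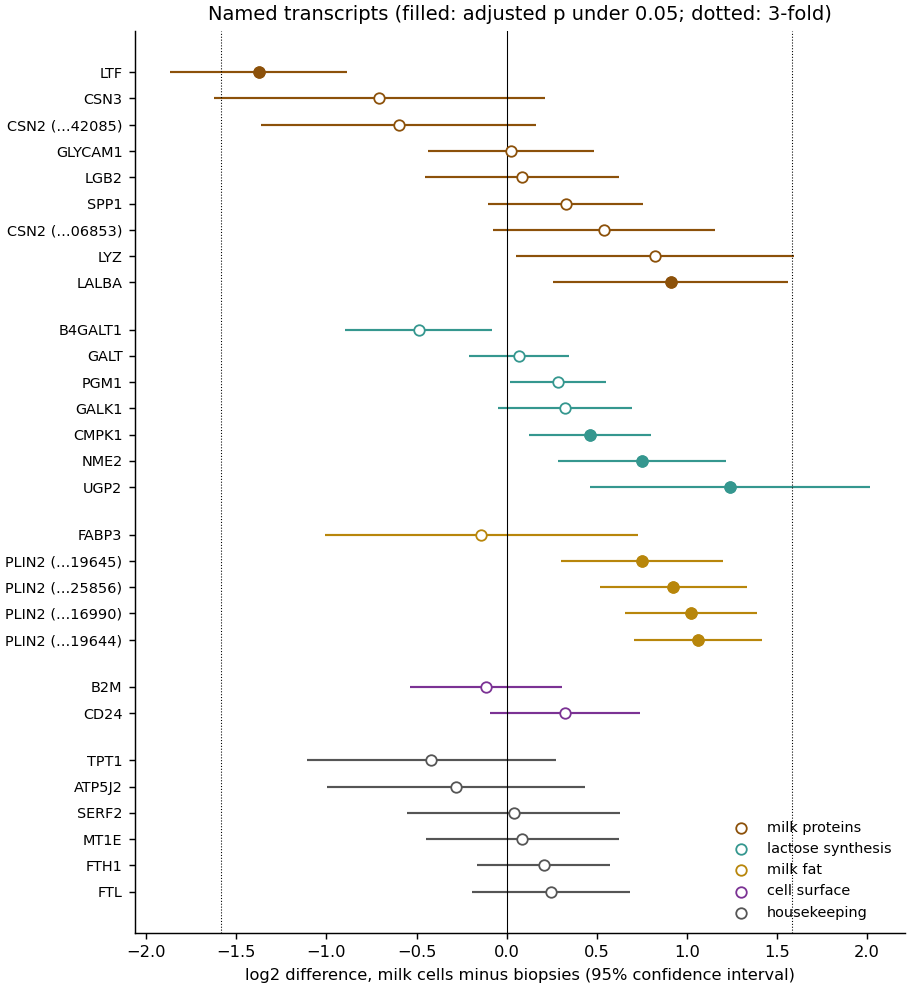
Log2 difference, milk cells minus biopsies, of the 29 named transcripts with its 95% confidence interval (6 animals, paired), grouped by role; filled points had an adjusted p under 0.05 and dotted lines mark 3-fold. Of 29 transcripts 8 were higher, 4 of them of PLIN2, and 1, LTF, was lower. Of all 14172 transcripts tested, 22.8% were higher and 21.6% lower. None of the 29 points lay beyond 3-fold.

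Beyond the named genes, changes over 3-fold were more often downward. Under the joint criterion (adjusted p under 0.05 and over 3-fold), 268 transcripts (1.89% of 14172) were called higher in milk cells and 587 (4.14%) lower, at 249 and 501 loci. At the adjusted p alone the numbers were near equal, with 3227 higher and 3056 lower. Of the calls, 250 of 268 and 545 of 587 had the same direction in all 6 animals, and for 188 and 379 all 12 milk cell samples lay beyond all 6 biopsies, against 5.6% and 3.67% of all transcripts tested. The calls were chosen on these same samples, so such agreement is partly built into them and is no separate support. With FPKM as deposited, which moved the median of all transcripts by 0.20, 375 were called higher and 497 lower, so that the higher calls were 43.0% of all calls in place of 31.3%. Without M1, M2 and M3, 238 were called higher and 500 lower, of which 182 and 405 were also called with all 6 animals.

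The lower calls reached further. Among them 131 of 587 exceeded 3 on the log2 scale and 28 exceeded 5, against 10 and 0 of the 268 higher calls. Their median level was 7.94 FPKM in biopsies and 0.630 FPKM in milk cells, and 352 had a mean under 1 FPKM in milk cells. In milk fat their median level was 0.256 FPKM, and 419 of 587 had a mean under 1 FPKM. That share is not given over all transcripts tested, so it is not read as particular to the lower calls. The higher calls stood at a median level of 0.958 FPKM in tissue and 8.25 FPKM in milk cells, while in milk fat their median was 3.75 FPKM.

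The transcripts with the largest differences could not be named. ENSMMUT00000032425 (chr3:122836027-122838120) had 55.4, 88.1 and 275 FPKM (lowest, median and highest) in biopsies, whereas it was listed at 0 in the median milk cell sample and reached 0.425 FPKM in the highest (log2 difference -6.73 ± 0.19, SE, adjusted p = 9.94e-07). ENSMMUT00000013054 (chr9:88515039-88532322) had 68.0, 108 and 253 FPKM in biopsies and 0.132, 0.497 and 1.48 FPKM in milk cells, a log2 difference of -6.46 ± 0.20 (SE, adjusted p = 1.06e-06). Both were nearly lost from milk cells of every animal, and both were at most 0.747 FPKM in milk fat. The first overlaps no other transcript, whereas the second lies at a locus of 4 overlapping transcripts.

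In the other direction, ENSMMUT00000019492 (chr1:185383238-185392409) was at most 4.50e-05 FPKM in biopsies and had 7.78, 33.7 and 58.6 FPKM in milk cells (log2 difference 4.67 ± 0.27, SE, adjusted p = 1.76e-05), and it was at most 0.0115 FPKM in milk fat. ENSMMUT00000038856 (chr8:134557301-134584401) was at most 0.335 FPKM in biopsies and had 11.7, 20.8 and 24.9 FPKM in milk cells, a log2 difference of 3.94 ± 0.12 (SE, adjusted p = 1.14e-06), and 0.767 to 12.7 FPKM in milk fat. Both lie at loci of 2 overlapping transcripts, between which Cufflinks divides the reads. The part of that division in their low biopsy levels was not tested. With overlapping loci summed, 124 were called higher and 371 lower. Of 42701 transcripts in all, 69 were listed at exactly 0 in all biopsies with a mean of at least 1 FPKM in milk cells. The other way round there were 143, and under 0.01 FPKM in place of 0, these were 111 and 187. Of 1801 transcripts at 0 in all biopsies and above 0 in some milk cells, 11 were above 0 in all 12 milk cell samples. Of 1196 the other way round, 103 were above 0 in all 6 biopsies. Being at 0 in 12 samples is a stricter condition than in 6. Only 2 of the 268 higher calls were at 0 in all biopsies, and 5 of the 587 lower calls at 0 in all milk cells.

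**Figure D4:**
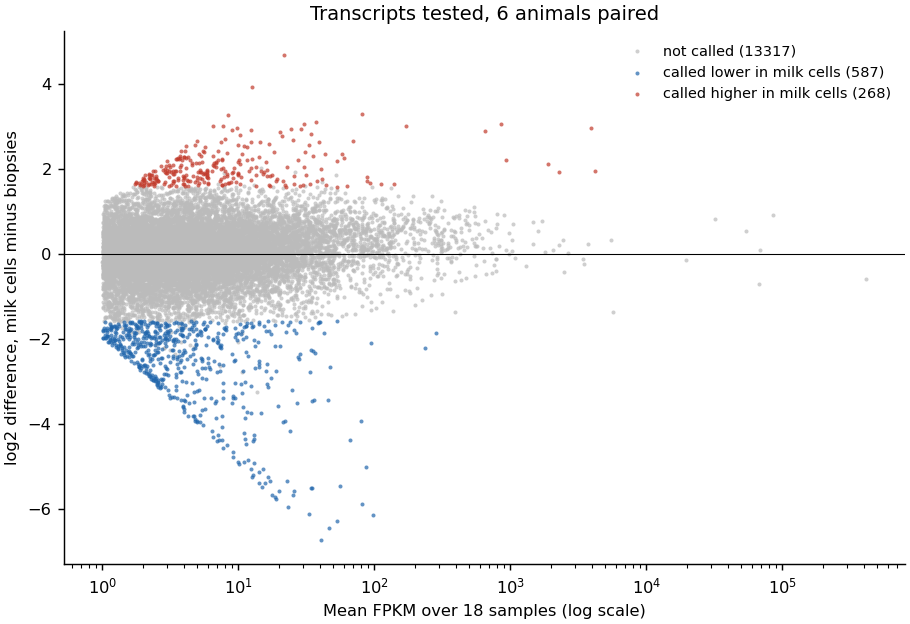
Log2 difference, milk cells minus biopsies, against the mean FPKM over 18 samples (log axis) for the 14172 transcripts tested, with 268 called higher and 587 called lower. The lower calls reached -6.73 and thinned out above 100 FPKM, while the higher calls reached 4.67 and included 4 above 1000 FPKM.

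Called transcripts were unevenly spread over levels and spans. Between 1 and 5 FPKM of mean level, 1.46% of transcripts were called higher and 5.04% lower, whereas between 100 and 1000 FPKM the shares were 1.54% and 0.514%. Of the 31 transcripts at 1000 FPKM or more, 4 were called higher and 0 lower. Among the 10 higher calls of highest mean level, 8 lay at loci under 200 bases, so this pattern is not separate from that of short loci. The low end is shaped by the pseudocount of 1, which bounds the difference of a low transcript, and by the filter on the mean of 12 milk cell samples and 6 biopsies.

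Loci under 100 bases, shorter than the reads, had 8.26% of 121 transcripts called higher and 1.65% lower, and loci of 100 to under 200 bases had 3.06% and 8.67% of 196. Summed, the 317 transcripts of loci under 200 bases took 1.21% to 2.71% of the summed FPKM in biopsies and 2.33% to 8.28% in milk cells. FPKM of such short loci rest on few possible read positions, and their levels are less certain than those of longer loci. At the long end, loci of 100000 bases or more had 3.48% of 1408 transcripts called higher and 3.05% lower, the only class above 200 bases in which higher calls outnumbered lower ones. Lower calls outnumbered higher ones on 19 of 21 chromosomes. Over all 21, the share called lower was 2.43% (chromosome 18) to 5.48% (chromosome 15).

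**Figure D5:**
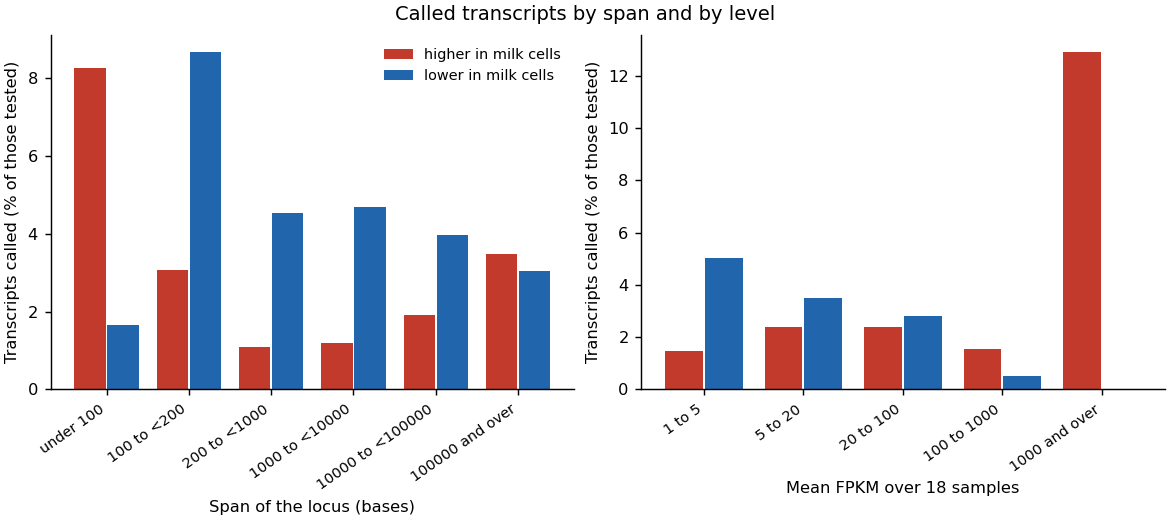
Percent of transcripts tested that were called higher (red) or lower (blue) in milk cells, by span of the annotated locus in bases and by mean FPKM over 18 samples. Higher calls led under 100 bases (8.26%) and at 1000 FPKM or more (12.9% of 31 transcripts), and lower calls led in the classes from 100 to under 100000 bases. Of the 10 higher calls of highest mean level, 8 spanned under 200 bases.

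Averaged over animals, the difference between sample types was larger than that between days of milk collection for most transcripts. In all 6 animals alike it was larger for 13.8% of transcripts. Over all transcripts tested, the median of the mean absolute log2 difference was 0.53 between an animal's milk cells and its biopsy and 0.37 between its days of milk cells, and the former was larger for 68.5% of transcripts. By animal, 323 to 1071 transcripts were more than 3-fold higher and 460 to 1098 more than 3-fold lower in milk cells. M1, M2 and M3 had the largest counts in both directions. They had 668 to 1071 higher against 323 to 362 in the others, and 1035 to 1098 lower against 460 to 630.

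The spread between animals was similar in both types over all transcripts, with a median SD of 0.32 on the log2 scale in biopsies and of 0.31 and 0.30 in milk cells at days 30 and 90. For the lower calls it was 0.55 in biopsies and 0.29 and 0.30 in milk cells, and the SD of day 30 milk cells exceeded that of biopsies for 23.0% of them, against 47.3% of all transcripts. Many of these transcripts were near 0 in milk cells, where the pseudocount limits the spread. Whether the difference between types depended on the day of the biopsy was tested on the 6 paired differences, 3 animals at each day. At an adjusted p under 0.05, 0 of 14172 transcripts passed (limma, lowest adjusted p = 0.240). An unadjusted p under 0.05 was reached by 593, no more than the share of 0.05 that arises with no dependence. With 3 animals at each day, a dependence could be missed.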

How the data were processed

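The authors trimmed single 100-base reads with Scythe and Sickle, mapped them to rheMac2 with TopHat and Bowtie, and used Cufflinks to estimate FPKM for each transcript of Ensembl release 67; these FPKM are the values deposited. Libraries were multiplexed in batches of 12. The 54 runs of the 18 samples were averaged per sample (3 each); no columns were identical, and 6 columns matching no sample were not used. The authors' own tests on read counts were not used here.

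Median-of-ratios factors for scaling came from 23230 transcripts above 0 in all 18, and log2(scaled FPKM + 1) was averaged over an animal's days. Transcripts with a mean of at least 1 FPKM were tested with limma 3.58.1 (R 4.3.3), with a variance trend and animal as a block, and called at a Benjamini-Hochberg adjusted p under 0.05 and more than 3-fold. A fold change on this scale understates that of low transcripts. Samples were paired by the animal in the labels, and same-animal deviations from the type means correlated at 0.0971 to 0.335. The biopsy of M3 (0.0971) correlated more with the milk cells of another animal than with its own. On simulated data with independent normal noise, 98.5% of 200 transcripts changed by 3 on the log2 scale were called, and 0 others. The real calls had smaller median changes, 1.92 for higher and 2.18 for lower. The simulation also lacked the division among the biopsies, so it does not give the error rates of the real calls. Overlapping annotated spans formed 23900 loci. Python 3.11.15 was used for summaries.

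Names were tied for 8 transcripts by identifiers printed with the study, and for 22 by mean FPKM in 3 sample types (within 1.52%, the next candidate at least 48.0 times farther), with LALBA tied by both, which gave 29 in all. Separately, 1 item is not reported here. Named were all transcripts so tied and, without names, the 2 with the largest difference in each direction among those called and of 1 direction in 6 animals. The comparison, lists and rules were chosen with earlier results of these data known. Alternatives covered scaling, pseudocount, filter, block, trend, day, loci and each animal left out; 3 more were added after the data were seen: leaving out M1, M2 and M3, leaving out the day 30 milk cells of M2, and filtering on the mean of the type means.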

Additional observations from a re-analysis of the deposited data

Results flagged for a closer look

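The share of LYZ among the 8 milk protein genes was 5.65% in the biopsy of M6, far from the 1.30% to 2.80% of the other 5 biopsies. It was the only value of 71 groups of 6 samples examined in which 1 sample lay beyond Dixon's limit of 0.625 of the range (gap of 0.656), and chance marks about 1 group in 20.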

How the results depend on the processing

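Counts of calls followed the pseudocount and the filter. Transcripts called higher and lower, 268 and 587, became 806 and 962 with a pseudocount of 0.1, 29 and 146 with 5, 159 and 209 with a mean FPKM of at least 5, 124 and 371 for overlapping loci summed, and 3227 and 3056 at the adjusted p alone. Leaving out each animal gave 224 to 298 and 507 to 646. Without the replicate block, that is without pairing by animal, the counts were 263 and 584, and of the named transcripts 2 were lower (LTF and B4GALT1).

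Of the 29 named transcripts 8 were higher and 1 lower, against 22.8% and 21.6% of all transcripts tested. The counts became 4 and 0 with no filter, and 4 and 0 against day 90 milk cells. There were 2 lower without the trend and 2 lower against day 30 milk cells. There were 11 higher with FPKM as deposited, 11 without M1, M2 and M3, and 9 against milk cells of the biopsy's day. With an animal left out, 5 to 8 were higher and 1 to 2 lower. Without M1, M2 and M3 the sign of the log2 difference turned for CSN2 (ENSMMUT00000042085; 0.070), CSN3 (0.12), FABP3 (0.68), B2M (0.022), TPT1 (0.26), ATP5J2 (0.47), GALT (-0.027) and GALK1 (-0.028). It also turned for FABP3 (0.11) and B2M (0.14) with FPKM as deposited, for FABP3 (0.12), B2M (0.088), ATP5J2 (0.061) and GALT (-0.013) against day 30 milk cells, and for GLYCAM1 (-0.34), FTH1 (-0.0057) and SERF2 (-0.25) against day 90. With an animal left out the range held both signs for LGB2 (-0.047 to 0.27), FABP3 (-0.36 to 0.19), B2M (-0.18 to 0.048), GLYCAM1 (-0.057 to 0.20), MT1E (-0.12 to 0.21) and SERF2 (-0.15 to 0.22). The causes were not tested. Without read counts, the depth behind a single FPKM value is unknown.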
